A study of Mus musculus with 14 samples.

Results

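Mammary cells sorted from virgin mice as stem-cell-enriched were compared with cells sorted as depleted, on 8 of the 14 arrays of the series. The enriched class held 3 arrays: the P4 population of wild-type FVB/N-J mice (2 arrays, CD24+CD29hi in the labels) and Lin-/GFPhi cells of L2G85 mice (1 array). The depleted class held 5: P5 (2 arrays, labelled luminal progenitor-enriched and also CD24+CD29hi) and P6 (2 arrays, labelled differentiated and CD24lo) of the wild-type mice, and Lin-/GFPlo cells of L2G85 mice (1 array). L2G85 is a transgenic luciferase line on the FVB/N background in which, as background knowledge, the broadly active CAG promoter drives luciferase and GFP, so the reporter itself is not tied to 1 cell type. The labels give no age, and whether replicates are separate or pooled animals is not stated in them. The p-values therefore cover the spread between these arrays alone, which between replicates may be technical. In the main comparison, with 1 mean per class, this spread also holds the differences among P5, P6 and GFPlo and between P4 and GFPhi. The remaining 6 arrays came from P4, P5 and P6 of pregnant wild-type mice (2 each) and served as arrays that the selection of genes did not use.

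The mammary duct has an inner layer of luminal cells and an outer basal layer of myoepithelial cells, which contract to eject milk and rest on a basement membrane. Cells that can regrow a gland after transplantation are recovered from the basal fraction, in mice usually by high CD29 (integrin beta 1) and CD24. The transcription factor p63, the keratins K5 and K14 and smooth muscle proteins are textbook marks of this layer. Hormone receptors mark part of the luminal layer.

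Each value is a log2 ratio: the signal of the sorted cells (Cy5) over that of a common reference RNA from a mix of 11 mouse cell lines (Cy3). A difference of 1 between 2 arrays is a 2-fold change. A gene was counted as separating the classes when all 3 enriched arrays lay above, or all 3 below, all 5 depleted arrays, and the gap is the distance between the nearest enriched and depleted array. A limma model with 1 mean per class tested the same difference, and a gene counted as called where its p, adjusted by Benjamini-Hochberg over all genes, was under 0.05. On the virgin arrays the median Cy5 intensity was 70.9 to 159 and its local background 33 to 33.5, with 66.4% to 82.4% of the probes clearly brighter than background. The GFPhi and GFPlo arrays were the dimmest. Pairs of virgin arrays correlated at 0.455 to 0.948 across genes (genes being no independent replicates), and no array repeated another.

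Across 22602 genes with a value on all 8 virgin arrays, 1358 (6.01%) lay higher in every enriched array and 631 (2.79%) lower. The upward side was also the steeper one. The gap exceeded 1 for 216 genes above and 4 below, and it exceeded 2 for 61 above and 0 below. Of the 1358 genes, 391 (28.8%) were at least 2-fold higher within each of the 3 slides, against 36 (5.71%) of the 631. Limma called 418 of 22710 genes, 367 higher (1.62%) and 51 lower (0.225%), of which 339 differed by at least 2-fold. Leaving out 1 array moved these counts. Limma called 120 genes without P4 replicate 1, 129 without P4 replicate 2 and 253 without P6 replicate 1. The genes above in every enriched array numbered 2253 without GFPhi and 2228 without GFPlo. Those below numbered 1559 and 958 without these arrays, and 993 without P4 replicate 2. Numbers of genes above or below can only rise when an array is left out, since fewer arrays have to meet the rule. Centring each array on its median in place of the intensity-dependent loess curve turned the split of 1358 above and 631 below into 678 and 775.

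Some genes stood only just on either side of the rule. Adgrg5, with a gap of 0.000397, was the last named gene counted above, and Idua, with -0.000262, the first left out. Of the 1358 genes 434 had a gap under 0.1, as had 296 of the 631. The description that follows is of the widest gaps and of gene lists.

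**Figure D1:**
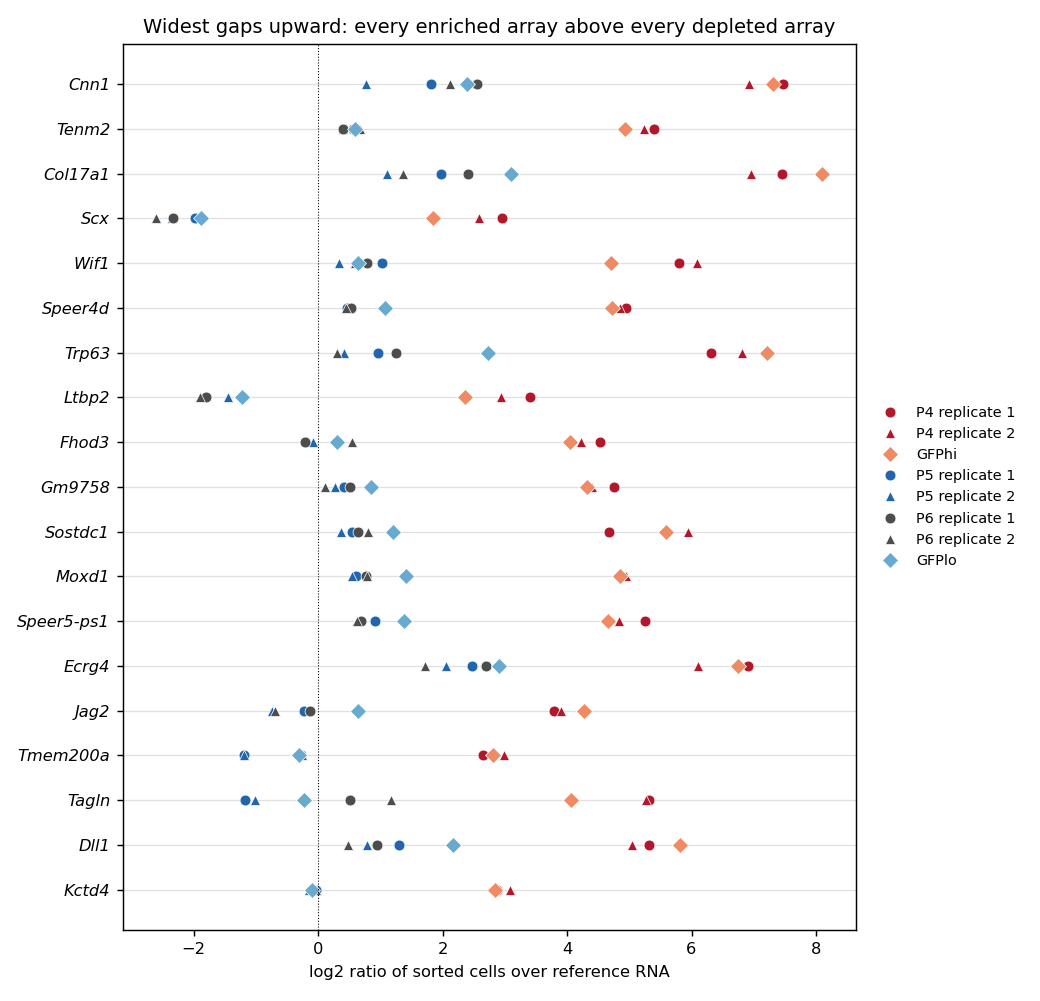
Log2 ratios over the reference RNA (x axis) of 19 of the 20 genes with the widest upward gaps and a reference symbol, 1 point per virgin array. Red and orange points are the enriched arrays and blue, light blue and grey points the depleted ones, and points can cover each other. In Cnn1 the enriched arrays lie from 6.93 to 7.47 and the depleted ones from 0.77 to 2.56.

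The widest gap belonged to a gene of the contractile, basal layer, and 3 of the 20 widest (Cnn1, Trp63 and Tagln) are among the 17 basal markers described further on. Cnn1, the smooth muscle calponin, stood at 7.47 and 6.93 in the P4 arrays and 7.31 in GFPhi, against 1.81 and 0.77 in P5, 2.56 and 2.12 in P6 and 2.39 in GFPlo. The 3 enriched arrays lay close together, with a gap of 4.37 to the nearest depleted one. The difference was 5.31 (SE 0.39), or 39.6-fold, with an adjusted p of 0.000803 by limma, and it was 5.28, 5.48 and 4.92 within slides 1, 2 and 5. Slides 1 and 2 each hold a virgin P4, P5 and P6 array, and slide 5 holds the GFP pair, so every slide gives the comparison by itself. Within slide 5 it rests on 1 array against 1.

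Trp63, which encodes p63, the master regulator of basal epithelium, was at 6.31 and 6.82 in P4 and 7.22 in GFPhi. It was at 0.97 and 0.41 in P5, 1.25 and 0.30 in P6 and 2.72 in GFPlo. GFPhi was thus the highest of the enriched arrays and GFPlo the highest of the depleted ones, and the groups did not overlap. The difference was 5.65 (SE 0.55; limma adjusted p = 0.00299). The other probes of Trp63, 2 in number, differed by only 0.04 and 0.64, so the value belongs to the brightest probe. With scale normalization between arrays Trp63, Cnn1, Col17a1, Dll1, Lgr5, Lgr4, Adgrl3, Ecrg4, Col4a6, Perp, Egflam, Gna14 and Kcns3 were no longer called (limma adjusted p from 0.0831 to 0.255), while their differences kept their direction.

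Tenm2, a teneurin that spans the membrane and binds latrophilin receptors, had the second widest gap. It was at 5.40 and 5.23 in P4 and 4.94 in GFPhi, and at 0.56, 0.41, 0.41, 0.68 and 0.60 in the 2 P5, the 2 P6 and the GFPlo arrays. The difference was 4.66 (SE 0.13; limma adjusted p = 1.73e-05), and the other probe of the gene gave 4.25. Adgrl3, a latrophilin and thus a receptor of teneurins, was also higher, at 2.67, 3.53 and 3.58 in the enriched arrays against 0.38 to 1.45 in the depleted ones (difference 2.50, limma adjusted p = 0.00759). Its other probes, 2 in number, differed by only 0.08 and 0.19, and without P4 replicate 2 its adjusted p was 0.0532. The background correction adds an offset to both channels, and its part in the narrow spread of the depleted values was not tested. Kctd4, a gene of little known function in this gland, was at 2.84 to 3.08 in the enriched arrays and -0.14 to -0.03 in the depleted ones, a difference of 3.01 that was 4.58 with the scanner's own log ratio. Its other probes disagreed, from -0.14 to 2.43. Restricted to probes above background on all 8 arrays, Kctd4 is read by another probe, with a difference of 0.20 (limma adjusted p = 0.808).

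Wif1, a secreted inhibitor that binds Wnt proteins, was at 5.80 and 6.09 in P4 and 4.70 in GFPhi against 0.33 to 1.02 in the depleted arrays. GFPhi was the lowest enriched array here and in Scx, Ltbp2 and Tagln. The difference of Wif1 was 4.85 (SE 0.31; limma adjusted p = 0.000435). Sostdc1, which binds BMPs and the Wnt co-receptor, was at 4.67, 5.94 and 5.60 against 0.37 to 1.21 (difference 4.69, limma adjusted p = 0.000462). Of 13 Wnt antagonists measured, these 2 were called higher, against 1.62% of all genes. Dkk3 separated the classes without passing the test (2.47, limma adjusted p = 0.268). The list's median was 0.04, against 0.02 over all genes. It turned to -0.00 with median centring and to -0.01 without the filter on dim probes or with that filter in Cy3.

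Limma called 12 of 17 basal and myoepithelial markers higher and none lower, against 1.62% of all genes higher. All but Cald1 of the 17 lay above in every enriched array (16, against 6.01% of all genes). The list's median difference was 3.40, and it was 3.86, 3.18 and 3.02 within slides 1, 2 and 5, with all 17 genes above 0 on each slide. The members called ran from 2.31 for Oxtr, the oxytocin receptor, to 5.65 for Trp63. Tagln, an actin-binding protein of smooth muscle, was at 5.32, 5.27 and 4.06 in the enriched arrays against -1.17 to 1.17 in the depleted ones, with the P6 arrays the highest of these. Acta2, smooth muscle actin, was at 4.41, 4.11 and 3.44 against -1.55 to 0.64. Their differences were 5.03 and 4.67, with limma adjusted p of 0.00757 and 0.00551, and Tagln missed the threshold without either P4 array (0.0565 and 0.0535). The basal keratins Krt5 (3.17), Krt14 (3.1) and Krt17 (2.92) were higher too, with GFPhi the highest array in each. Myh11 (3.40), Myl9 (4.11), Mylk (3.96) and Actg2 (2.36) separated the classes but did not pass the test (adjusted p = 0.0562 to 0.138), and Cald1 (2.36) overlapped because P6 replicate 1 stood at 3.02. In a sort of whole cells, fewer cells of a type and less RNA per cell cannot be told apart.

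Sequence was set beside all genes above in every enriched array, of which contractile genes are a part. Many smooth muscle genes carry a CArG box, the site that serum response factor binds, which reads CC, then 6 bases that are each A or T, then GG, and is found on both strands by 1 search. It was looked for in the 250 bases before the start of transcription in RefSeq promoter windows (GRCm38.p6), which 13876 of the tested genes have. The box was present for 1.45% of these genes, for 34 of 869 (3.91%) of those above in every enriched array and for 2 of 459 (0.436%) of those below. These shares are a description, and a match is not a shown binding site. Srf itself, which encodes the factor, was higher (2.05, 1.96 and 1.16 against 0.30 to 0.67; difference 1.25, limma adjusted p = 0.0306, or 0.0693 with slide as a block). Of the 34 genes 14 were called higher, as were 365 of all 1358 genes above in every enriched array. The 6 with the widest gaps are printed because they show the box beside the genes that moved, with the box in capitals, up to 10 bases on each side, and all on the strand of the gene. They are Trnp1 (chr4:133498711-133498740, minus strand), a nuclear protein of neural progenitors, Lgr4 (chr2:109917491-109917520, plus), a receptor of R-spondins, Rnf128 (chrX:139610393-139610422, plus), a ubiquitin ligase, Myl9 (chr2:156775293-156775322, plus), a myosin light chain, Pdgfc (chr3:81036389-81036415, plus), a growth factor, and Actc1 (chr2:114052903-114052932, minus), cardiac actin. They were chosen after their values were seen.
Trnp1: cttatctaccCCAAATTTGGgatgatgccc
Lgr4: ttcctcttgaCCAATAATGGctccactgcc
Rnf128: gaggattcttCCTAAAAAGGacaggacaca
Myl9: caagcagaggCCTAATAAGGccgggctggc
Pdgfc: cccgcagactCCTTATTTGGggttagg
Actc1: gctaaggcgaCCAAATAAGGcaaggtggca
Their differences were 4.07, 2.53, 2.80, 4.11, 1.85 and 4.18 in this order, and all but Myl9 were called higher. Lgr4 was not called without either P4 array (adjusted p = 0.0859 and 0.0818). Among the 11 basal markers with a window only Myl9 had the box in it, 161 bases before its start, while the windows of Acta2 and Cnn1 did not contain these letters.

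Junction and matrix genes were higher in part. Col17a1, a transmembrane collagen of hemidesmosomes, was at 7.45, 6.95 and 8.10 in P4 and GFPhi, against 1.98 and 1.11 in P5, 2.40 and 1.36 in P6 and 3.09 in GFPlo. GFPhi was the highest array and P5 replicate 2 the lowest, and the groups did not overlap. The difference was 5.51 (SE 0.48; limma adjusted p = 0.00181). Of 16 genes of hemidesmosomes and desmosomes, Col17a1 and Perp were called higher (against 1.62% of all genes), and 10 lay above in every enriched array (against 6.01%). The median was 1.36, and within slides it was 1.58, 1.57 and 1.36. Perp, a p63 target in desmosomes, was at 3.92, 4.08 and 3.43 against -2.36 to 0.91, with P6 the lowest (difference 4.35, limma adjusted p = 0.0364). With slide as a block its adjusted p was 0.107, and it was 0.0647 to 0.192 without either P4 array, P6 replicate 1 or either GFP array. The desmosome plaque protein Pkp1 (3.40) and the integrin Itga6 (3.55) separated the classes and missed the threshold (limma adjusted p = 0.0798 and 0.0594).

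Among 24 basement membrane and integrin genes limma called 5 higher and none lower, and 10 lay above in every enriched array. Over all genes 1.62% were called higher and 6.01% lay above. Among those called were the laminin chains Lama3 (2.84) and Lama1 (3.28) and the collagen IV chains Col4a6 (3.66) and Col4a5 (2.19). Lama3 was at 3.58, 3.49 and 3.36 against 0.42 to 0.85, although its other probe differed by 0.05. Lama1 was at 4.20 and 4.49 in P4 but 2.40 in GFPhi, against 0.16 to 0.96. The list's median was 1.21, and it was 1.60, 1.28 and 0.56 within slides 1, 2 and 5, so it was lowest in the GFP pair. Col4a6 had an adjusted p of 0.0665 with slide as a block and of 0.0533 to 0.135 without either P4 array, P5 replicate 2, P6 replicate 1 or GFPhi. Lama1 had 0.101 and 0.0797 without either P4 array.

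Notch ligands were among the widest gaps. Dll1 was at 5.32, 5.04 and 5.82 in P4 and GFPhi against 0.48 to 1.29 in P5 and P6 and 2.17 in GFPlo. Jag2 was at 3.78, 3.91 and 4.27 against -0.74 to -0.12 in P5 and P6 and 0.64 in GFPlo. In both ligands GFPhi was the highest enriched and GFPlo the highest depleted array. Their differences were 4.26 (SE 0.38) and 4.22 (SE 0.32), with limma adjusted p of 0.00203 and 0.000876. They were the only 2 of 23 Notch pathway genes called, against 1.62% of all genes called higher. The list median of 0.09 was -0.09 with median centring and -0.14 with scale normalization. Dtx1 (1.10), a ubiquitin ligase that binds Notch, separated the classes upward and the receptor Notch3 (-0.99) downward, both without passing the test.

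Of 14 genes linked to mammary stem cells, limma called 3 higher (against 1.62% of all genes) and none lower: Dll1, Lgr5 and Bcl11b. Lgr5, a receptor of R-spondins that amplifies Wnt signals, was at 4.45, 4.33 and 4.33 in the enriched arrays, close to each other. It was at 0.41 and 0.68 in P5, 1.09 and 1.04 in P6 and 2.01 in GFPlo (difference 3.33, SE 0.33; limma adjusted p = 0.0033, but 0.144 with the scanner's own log ratio). Bcl11b, a transcription factor linked to quiescent basal cells, was at 0.55 and 1.05 in P4 and -0.66 in GFPhi against -2.13 to -1.75. Its difference was 2.33 (limma adjusted p = 0.0186), and 0.0507 with slide as a block or 0.0505 to 0.119 without either P4 or either P6 array. Id4 (4.07), an inhibitor of helix-loop-helix factors in basal cells, also separated the classes but had an adjusted p of 0.0689. The 10 other genes overlapped. Snai2, which encodes Slug, shows how: it was at 0.92, 1.32 and 2.17 in the enriched arrays, at -3.47 and -3.97 in P5, but at 1.36, 0.96 and 1.58 in P6 and GFPlo. The list's median was 0.67 (0.58, 0.81 and 0.47 within slides 1, 2 and 5). Among 21 basal and mesenchymal transcription factors, Trp63, Bcl11b and Srf were called higher (1 of 21 with slide as a block), against 1.62% of all genes. In every enriched array 5 lay above, against 6.01% of all genes. The median was 0.32, falling to 0.03 within slide 5.

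Of 41 Wnt ligands, receptors and targets, 7 were higher by limma, 10 lay above in every enriched array and Wnt4 lay below. Over all genes 1.62% were called higher, 6.01% lay above and 2.79% below. The called members were the ligands Wnt10a (3.26) and Wnt6 (1.91), the receptors Fzd7 (1.84), Fzd9 (1.06), Lgr5 and Lgr4 and the nuclear factor Tcf7 (1.77). Wnt10a was at 1.60, 1.31 and 0.14 against -3.01 to -1.69, with P5 the lowest (limma adjusted p = 0.0167, 0.0633 with slide as a block, and 0.104 and 0.105 without either P4 array). The number called fell to 3 with slide as a block. The list's median was 0.03, and -0.01 with scale normalization. Of 33 TGF-beta and BMP pathway genes only Ltbp2, a matrix protein of the fibrillin family, was called, against 1.62% of all genes called higher. Ltbp2 was at 2.90 ± 0.52 (SD, n = 3) against -1.51 ± 0.33 (SD, n = 5), and its other probe differed by -0.01. The pathway list's median was 0.02, and it was below 0 with median centring, scale normalization, group means or P5 replicate 1, P5 replicate 2, P6 replicate 1 or GFPlo left out (lowest -0.13). Of 44 axon guidance genes, with a median of 0.40, Tenm2, Adgrl3 and Efna5, an ephrin, were called higher, against 1.62% of all genes. With slide as a block Efna5 had a limma adjusted p of 0.055. None of 13 EGF family genes was called by limma, and 2 had an unadjusted p under 0.05, against 2435 of all 22710 genes.

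Other genes with wide gaps belong to none of these groups. Scx, the transcription factor of tendon cells, was at 2.96, 2.59 and 1.85 against -2.60 to -1.88 (difference 4.69, limma adjusted p = 0.00028). Fhod3, a formin that assembles actin in muscle, was at 4.26 ± 0.24 (SD, n = 3) against 0.07 ± 0.34 (SD, n = 5). Ecrg4, a secreted augurin precursor, was at 6.59 ± 0.43 (SD, n = 3) against 2.37 ± 0.49 (SD, n = 5). Its difference of 4.22 was 2.24 with the scanner's own log ratio or the series table, and not called there (limma adjusted p = 0.0533 and 0.0532). Moxd1, a monooxygenase of neural crest cells, was at 4.88 ± 0.06 (SD, n = 3) against 0.82 ± 0.34 (SD, n = 5). Speer4d, Gm9758 and Speer5-ps1 differed by 4.23, 4.06 and 4.06. They belong to 1 family of near-identical copies, so their probes may read the same transcripts and their identity is uncertain. Tmem200a, a membrane protein, was at 2.65, 2.98 and 2.82 against -1.19 to -0.26, with the lowest values in P5, and its other probe differed by 0.54.

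Fewer and smaller differences ran the other way. Nupr1, a stress-induced nuclear protein, was at -1.13 and -2.11 in P4 and -0.62 in GFPhi. It was at 1.42 and 0.26 in P5, 1.26 and 1.04 in P6 and 1.30 in GFPlo, so the gap was 0.88. The difference was -2.34 (SE 0.38; limma adjusted p = 0.0266), 5.06-fold lower. It lost its call without either P4 array, P5 replicate 1, either P6 array or GFPlo, with adjusted p from 0.0528 to 0.126.

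**Figure D2:**
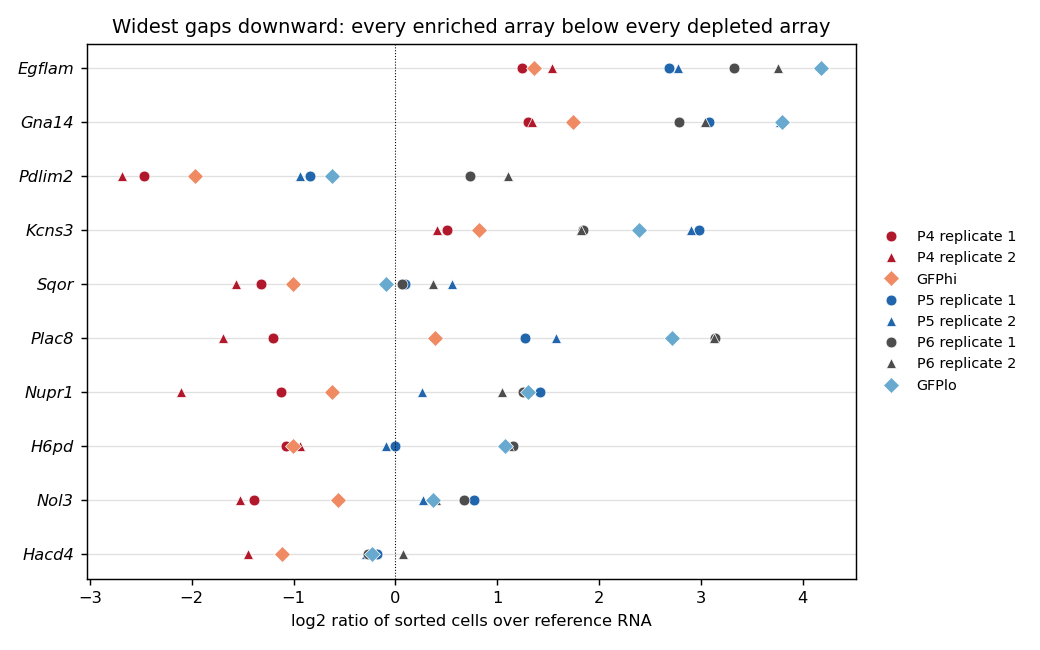
Log2 ratios over the reference RNA (x axis) of the 10 genes with the widest downward gaps, drawn as in the plot of upward gaps. The widest gap, in Egflam, is 1.15, and in Plac8 and Pdlim2 the depleted arrays spread more widely than the gap.

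Egflam, a matrix protein that binds dystroglycan, was at 1.24, 1.54 and 1.36 in the enriched arrays against 2.69 and 2.78 in P5, 3.32 and 3.75 in P6 and 4.18 in GFPlo (difference -1.96, limma adjusted p = 0.0364). Its other probe differed by 0.09, and with slide as a block its adjusted p was 0.0625. It ranged from 0.0849 to 0.198 without either P4, either P6 or the GFPhi array. Gna14, a G protein subunit, was at 1.30, 1.34 and 1.75 against 2.79 to 3.79 (difference -1.83, limma adjusted p = 0.0176, and 0.115 and 0.109 without either P4 array). Kcns3, a potassium channel subunit, differed by -1.81, with P5 the highest at 2.98 and 2.91 (limma adjusted p = 0.0343, 0.0933 with slide as a block, and 0.0576 to 0.184 without either P4, either P5 or either GFP array). The gaps of these 3 genes were 1.15, 1.04 and 1.0, and with backgrounds as given none of the 3 was called by limma (adjusted p from 0.519 to 0.649).

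Sqor, a mitochondrial enzyme of sulfide oxidation, was at -1.32, -1.57 and -1.0 against -0.10 to 0.55. Its difference was -1.49 (limma adjusted p = 0.00936, and 0.0669 and 0.056 without either P4 array). Nol3, a repressor of apoptosis, differed by -1.66 (0.0157, and 0.103 and 0.0851 without either P4 array). Hacd4, an enzyme of fatty acid elongation, differed by -1.04 (0.00852), and it kept its call with each array left out but not with median centring. Plac8 (-3.20, limma adjusted p = 0.053), Pdlim2 (-2.26, 0.0969) and H6pd (-1.66, 0.0674) lay below in every enriched array without passing, and P6 stood above P5 in each.

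In the luminal and stromal lists P5, P6 and GFPlo differed among themselves. General luminal markers had a list median level of 1.56 and 1.18 in P4 and 1.97 in GFPhi, against 3.82 and 3.81 in P5, 0.54 and 0.23 in P6 and 1.51 in GFPlo. By limma none of 16 was called, 0 had an unadjusted p under 0.05 and none separated the classes. Of all 22710 genes, 2435 had an unadjusted p under 0.05 by limma. None of 13 hormone-sensing luminal markers was called (4 with an unadjusted p under 0.05 by limma), and the list's median was -1.0. Ly6a (-1.82), Wnt4 (-1.59) and Xbp1 (-1.14) of this list lay below in every enriched array, against 2.79% of all genes. In pregnant mice 2 of the 13 lay above and 2 below P5 and P6 in both P4 arrays, against 10.3% and 6.92% of all genes. Of the early response and heat shock genes Jun, Fosb and Ier2 (-1.29, -0.72 and -0.81) lay below in every enriched array, against 2.79% of all genes. None of the 14 on this list was called by limma (4 with an unadjusted p under 0.05, median -0.58). In pregnant mice the median of this list was 1.31, and 3 lay above P5 and P6 in both P4 arrays, against 10.3% of all genes.

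Fibroblast markers set P6 and GFPlo apart. Their median level was 3.70 and 4.12 in P6 and 3.1 in GFPlo, against -1.0 and -1.11 in P4, 0.29 in GFPhi and -2.22 and -2.40 in P5. None of 20 was called by limma (1 with an unadjusted p under 0.05, against 2435 of all 22710 genes). Only Col6a3, a collagen VI chain, lay below in every enriched array (-3.26, limma adjusted p = 0.158), against 2.79% of all genes. Of 15 endothelial markers 4, Flt1, Robo4, Sox17 and Vwf, lay above in every enriched array, against 6.01% of all genes. None was called by limma (8 with an unadjusted p under 0.05, against 2435 of all 22710 genes). The list's median difference was 1.23, and 14, 14 and 11 of the 15 were above 0 within slides 1, 2 and 5. In pregnant mice 9 of these markers lay above P5 and P6 in both P4 arrays, against 10.3% of all genes. Their median level was 3.28 and 3.05 in P4 and 1.74 in GFPhi, against 1.13 to 2.58 in the depleted arrays, and Kdr, a VEGF receptor, stood at 4.42, 4.66 and 3.32 against 1.29 to 4.08. The part of endothelial and fibroblast RNA in the basal gene results was not tested. Of 9 pericyte markers, which share contractile genes with basal cells, Mcam lay above and Notch3 below, against 6.01% and 2.79% of all genes. The median level of the pericyte list was highest in P6 and GFPlo (2.85 to 3.73, against 1.48 to 1.73 in the enriched arrays). Of 14 immune markers Cd68 and Lyz2 lay above, against 6.01% of all genes. Ptprc, the pan-leukocyte marker, was at -3.1 to -2.09 in the enriched arrays against -4.30 to -1.70. Every member of these lists was above background on at least 1 array of each class. Of 22 cell cycle genes 19, 22 and 22 had a difference above 0 within slides 1, 2 and 5. Their median was 0.43, against 0.02 over all genes. None was called by limma (2 with an unadjusted p under 0.05, against 2435 of all 22710 genes). In pregnant mice the median of this list was -0.37, against -0.05 over all genes, and none lay above P5 and P6 in both P4 arrays.

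The labels give P4 and P5 the same gate, and the transcripts of the sorting proteins differed between them. Cd24a was at 2.03 and 1.49 in P4 and 1.80 in GFPhi against 3.67 and 3.38 in P5, -0.18 and -1.36 in P6 and 1.17 in GFPlo. Itgb1, which encodes CD29, was at -0.35 and -0.14 in P4, -1.53 and -1.34 in P5, -0.90 and -0.26 in P6, -1.14 in GFPhi and -1.15 in GFPlo. Neither separated the classes. The labels give both P4 and P5 high CD29, yet Itgb1 was higher in both P4 arrays than in both P5 arrays. Of the genes that could mark the labelled stem-cell-enriched class, 4 of 14 stem-linked genes and 16 of 17 basal markers lay above in every enriched array. Over all genes this share was 6.01%.

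**Figure D3:**
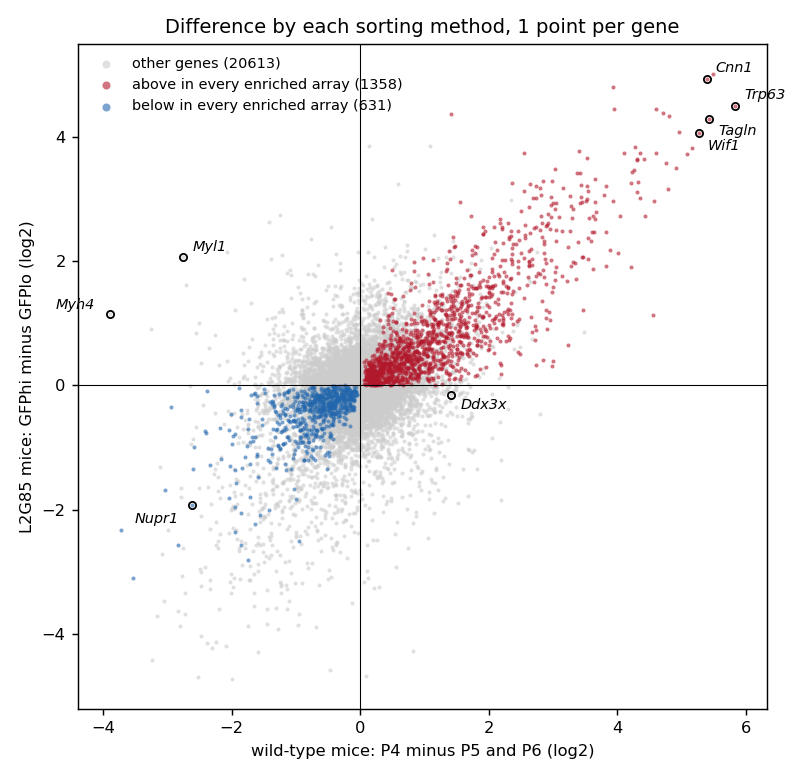
Difference within wild-type mice, P4 minus the mean of P5 and P6 (x axis, log2), against GFPhi minus GFPlo (y axis, log2), 1 point per gene. Red and blue points are the genes that separate all 8 arrays, which fixes their quadrant, and named points show genes on which both sorts go the same way (Cnn1, Trp63) or opposite ways (Myh4, Myl1).

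The GFP pair gives a reading of the wild-type result that its selection did not use. In the wild-type arrays alone both P4 arrays lay above all P5 and P6 arrays in 3188 of 22623 genes (14.1%) and below in 1923 (8.5%). Of the former, 2301 of 3185 with a value (72.2%) were higher in GFPhi than in GFPlo, against 50.8% of all genes. By at least 2-fold it was 15.3%, against 3.51%. Of the latter, 72.2% were lower in GFPhi, against 49.2%. Limma called 274 genes higher (1.21%) and 55 lower (0.243%) in wild-type P4. Of the 274, GFPhi was higher for 265 (96.7%), with a median of 1.14, and 161 were at least 2-fold higher and 0 at least 2-fold lower. Of the 55, GFPhi was lower for 48 (87.3%), and 6 were at least 2-fold lower. The wild-type calls numbered 188 with slide as a block, and 48, 20, 78, 118, 121 and 158 without P4 replicate 1, P4 replicate 2, P5 replicate 1, P5 replicate 2, P6 replicate 1 and P6 replicate 2.

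Among the genes above in every enriched array the median was 1.04 in wild-type mice and 0.62 in the GFP pair, and among those below -0.62 and -0.35. These genes were chosen on the same arrays, so the sizes are a description and no test of a difference between the sorts. Over all 22602 genes the difference correlated at 0.807 between slides 1 and 2, at 0.518 between slides 1 and 5 and at 0.580 between slides 2 and 5, a description across genes that share labelling and platform. A model with a separate class effect for each sorting method found 0 of 22602 genes (0%) by limma for which these effects differed, and 555 had an unadjusted p under 0.05. With 1 array in each GFP group, this does not show that the methods act alike.

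**Figure D4:**
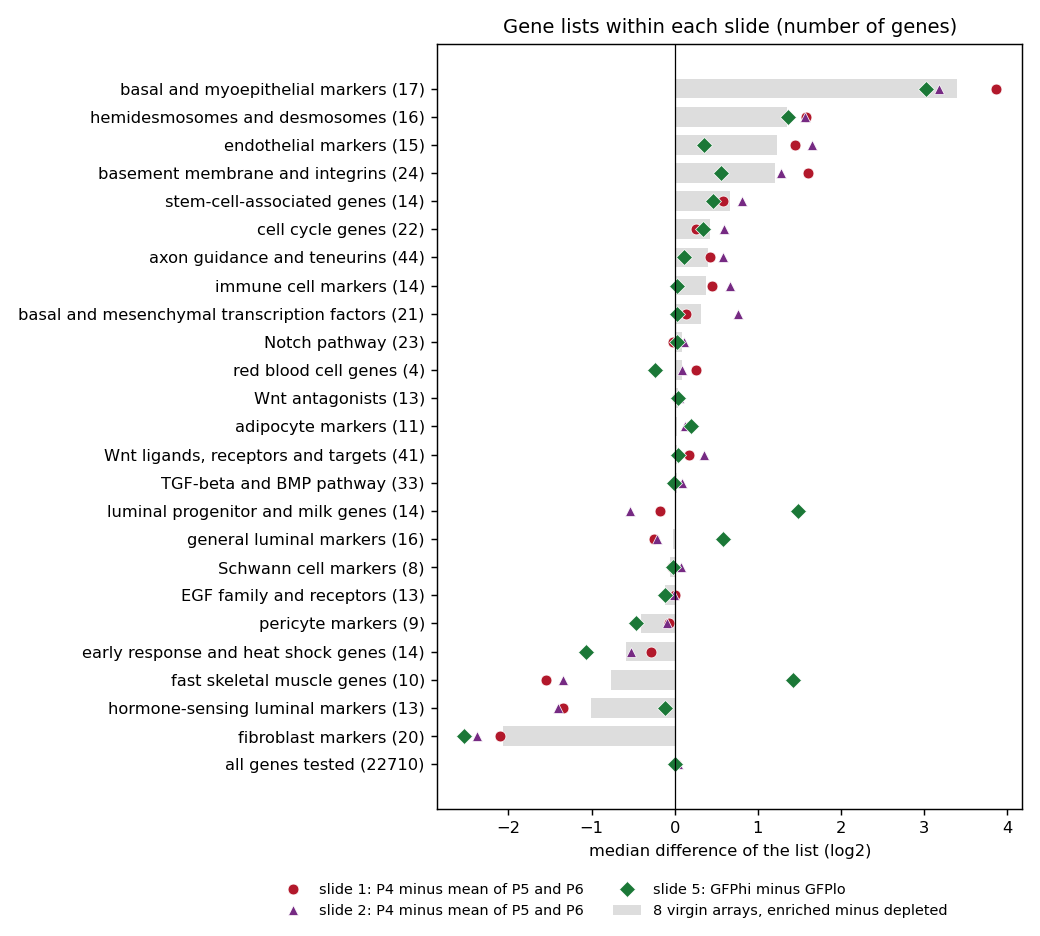
Median difference of each gene list (x axis, log2) over the 8 virgin arrays (grey bars) and within each slide (points), with the number of genes tested in brackets. The basal list lies between 3.02 and 3.86 on every slide, while the luminal progenitor and fast skeletal muscle lists lie on opposite sides of 0.

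Some lists pointed in opposite directions in the 2 sorts when P4 was set against the mean of P5 and P6. All 14 luminal progenitor and milk genes were higher in GFPhi than in GFPlo (median 1.49), whereas 4 of 14 were higher in P4 within slide 1 and 4 within slide 2 (medians -0.17 and -0.53). Of 10 fast skeletal muscle genes 9 were higher in GFPhi (median 1.43), against 2 within each wild-type slide (medians -1.55 and -1.34). General luminal markers were higher in GFPhi for 13 of 16, against 7 and 7. Myh4, a fast myosin, was at 0.51 and 1.31 in P4 and 5.08, 4.83, 4.42 and 4.88 in P5 and P6, but at 5.67 in GFPhi and 4.53 in GFPlo. Aldh1a3, a retinoic acid-forming enzyme of luminal progenitors, was at 3.28 and 2.98 in P4 and 4.91 to 6.92 in P5 and P6, but at 5.76 in GFPhi and 4.14 in GFPlo. Other genes low in both P4 arrays and higher in GFPhi than GFPlo were Myh8, Cyp2f2, Duoxa1, Basp1, Oas1f and Slfn10-ps. In the opposite direction were Ddx3x, Lyve1, Rgs1, Lck, Ctss, Cdk5r1, Gata2 and Myh9, several of them genes of immune cells. Lck, a kinase of T cells, was at -0.64 and -0.66 in P4 and -2.13 to -1.71 in P5 and P6, with -1.07 in GFPhi and -0.93 in GFPlo. None of these genes was called for a difference between the methods.

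**Figure D5:**
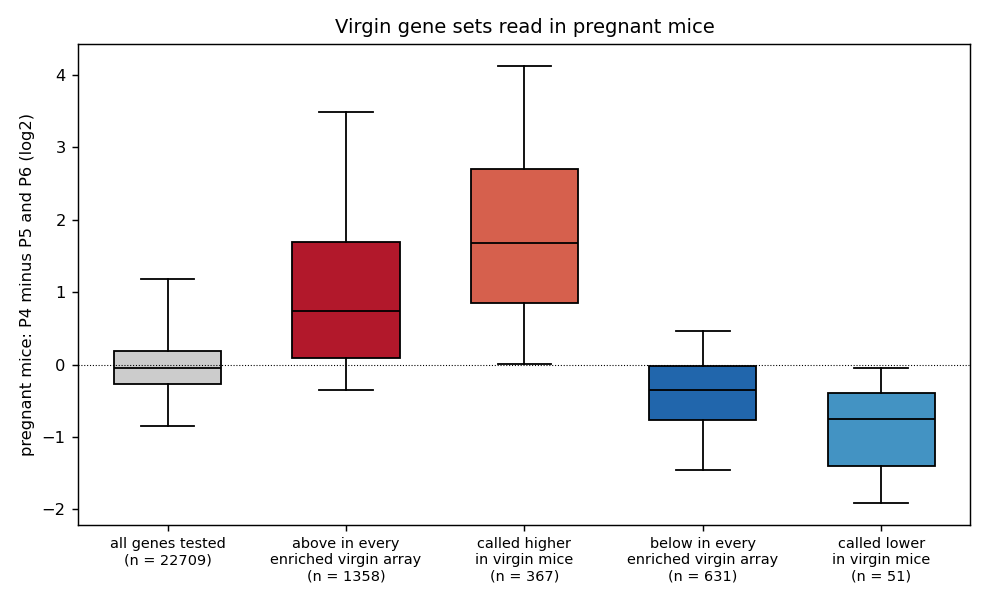
Difference P4 minus P5 and P6 in pregnant mice (y axis, log2) for all genes and for the gene sets chosen in virgin mice. Boxes show quartiles and median, whiskers the 5th and 95th percentiles. The median is 0.74 for genes above in every enriched virgin array and 1.68 for those called higher, against -0.05 for all genes.

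The 6 arrays of pregnant mice were not used to choose the genes. There both P4 arrays lay above all P5 and P6 arrays for 10.3% of 22667 genes and below for 6.92%. Of the 1357 virgin upward genes measured, 699 (51.5%) lay above and 7 below. Of 216 genes with a virgin gap over 1, 185 (85.6%) lay above and 0 below. Of 630 virgin downward genes 157 (24.9%) lay below and 18 above. Limma called 209 of 22709 genes higher (0.92%) and 12 lower (0.0528%) in pregnant P4, among them 153 of the 1357 higher (11.3%) and 6 of the 630 lower (0.952%). These calls rest on few arrays: limma called 0 genes without P4 replicate 1 or without P4 replicate 2 (1157 and 1304 with an unadjusted p under 0.05), and 43, 40, 58 and 105 without P5 replicate 1, P5 replicate 2, P6 replicate 1 and P6 replicate 2. Replicate 1 of all 3 pregnant populations shared 1 slide and scan, without the extended intensity range, and had 111 to 236 saturated spots. Replicate 2 of pregnant P4 was on slide 2, together with virgin P4, P5 and P6 replicate 2, which did serve to choose the genes. Replicate 2 of pregnant P5 and P6 was on slide 4. The part of slide in the pregnant reading was not tested.

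Trp63 was at 5.56 and 6.22 in pregnant P4 against 0.43 to 1.07 in P5 and P6 (difference 5.23, limma adjusted p = 0.00631). Sostdc1, Dll1 and Jag2 differed by 5.06, 4.40 and 3.95, close to their virgin differences, which include the GFP pair. Wif1 and Tenm2 did so by 3.04 and 3.32 from lower P4 levels, 3.07 and 3.48 for Wif1. Cnn1 showed a spread within P4, at 4.12 and 8.13, with P5 and P6 at 1.85 to 3.93, so that the difference of 3.08 did not pass (limma adjusted p = 0.531). Acta2 likewise stood at 1.90 and 5.98. Of the 17 basal markers 16 lay above in both pregnant P4 arrays and 4 were called higher, against 10.3% and 0.92% of all genes. Nupr1 was at -0.85 and -0.72 against 1.25 to 2.83 (difference -2.94, adjusted p = 0.0916).

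A few virgin differences were smaller in pregnant mice. The change of the class difference with condition, an interaction over all 14 arrays, was called for 22 of 22563 genes (0.0975%). Its virgin side includes the GFP pair of L2G85 mice, which has no counterpart in pregnant mice, so the sets of arrays are unlike. Lgr5, with 4.45, 4.33 and 4.33 in the enriched virgin arrays, was at 0.41 and 0.73 in pregnant P4 against -0.06 to 0.28. The pregnant populations did not overlap but differed by only 0.46. The interaction was -2.87 (limma adjusted p = 0.0301). Speer4d, Gm9758 and Speer5-ps1 had interactions of -2.01, -2.10 and -2.18, with pregnant P4 still above P5 and P6.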

How the data were processed

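Per the labels, RNA of sorted cells was labelled with Cy5 and the reference with Cy3. Per the submitters' processing notes, scans were read with Agilent Feature Extraction 9.5.3.1. The deposited scanner files give mean and local background intensity per spot on a linear scale, the software's log10 ratio, and flags without unit. The authors also deposited log2 ratios in a table of the series, which matched the scanner's (correlations from 0.996 to 1.000 on the virgin arrays), with column medians from -0.0182 to 0.0193. It was used only as an alternative, and its centring stays unknown.

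Here intensities were corrected with normexp (offset 50) and loess in limma 3.58.1 (R 4.3.3). Backgrounds flagged as outliers, 9 to 220 per virgin array and channel, were set to the array median, outlier spots (109 to 193) to missing, and control spots dropped. A probe entered where its Cy5 signal was flagged well above background on 3 or more of the 8 virgin arrays (33261 probes). The brightest probe was kept for the 7371 genes with several. Of the other probes of called genes 7.17% pointed the other way. Names came from a RefSeq table (17529 of 22710 genes).

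The model had 2 class means over the 8 virgin arrays. Named genes are the 4 marker genes, the widest gaps (20 upward, 10 downward), up to 4 per list, those on which the sorts opposed, and the sorting genes. Some genes that meet these rules are not reported here. The genes and lists were chosen with earlier results of these data known.

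Same-numbered arrays of virgin P4, P5 and P6 shared a slide, and their deviations correlated at 0.305 to 0.683. In pregnant mice replicate 1 of all populations shared slide 3, while replicate 2 of P4 was on slide 2 and that of P5 and P6 on slide 4. Their deviations correlated at 0.633 to 0.691. The pregnant replicates also differed in scan and intensity range, so these correlations do not show pairing by slide. With slide as replicate block 349 virgin genes were called, 265 of them among the 418. Alternatives are given in the closing section. The limma class comparison was also run on simulated data with known changes and independent noise per array. That simulation held no shared slides and no differences among P5, P6 and GFPlo. It therefore does not give the error rate in these data.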

Additional observations from a re-analysis of the deposited data

Results flagged for a closer look

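Of 30 genes tested (the markers and the widest gaps), 3 had an array far from the other 4, where chance marks about 1 group in 20. Speer4d was at 1.07 in GFPlo, with the others at 0.45 to 0.53. Moxd1 was at 1.41 in GFPlo, with the others at 0.55 to 0.79. Hacd4 was at 0.0749 in P6 replicate 2, with the others at -0.28 to -0.18. Each of these arrays still lay on the depleted side of the gap.

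The class difference itself changed with pregnancy for 4 named genes, by limma's interaction over the 14 arrays, a test added after seeing the data. It was -2.87 for Lgr5, -2.18 for Speer5-ps1, -2.10 for Gm9758 and -2.01 for Speer4d, each with a smaller difference in pregnant mice. The slides of pregnant and virgin mice overlap in only 1, and the GFP pair enters the virgin difference only. The part of slide or of the GFP pair in these interactions was not tested.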

How the results depend on the processing

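The number of arrays and dim signal limit these results. Of 36 named genes called, 13 kept the call under every alternative run, 22 with each array left out and 30 with slide as replicate block, and none changed direction. The 6 that the block took were Egflam, Kcns3, Bcl11b, Col4a6, Perp and Wnt10a, and it changed no other call among these 36. The call was lost in 98 of 789 combinations of gene and alternative. Median centring took the calls of Kcns3, Sqor, Hacd4, Bcl11b, Col4a6, Perp and Wnt10a (limma adjusted p from 0.0669 to 0.213), and the scanner's log ratio those of Ecrg4, Egflam, Kcns3, Lgr5 and Lama1 (0.0533 to 0.339). Of 25 list medians 11 changed sign somewhere, and those of the basal, stem-linked, basement membrane and junction lists did not.

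Limma called 147 genes with median centring, 208 with scale normalization and 2033 with a mean for each of the 5 groups (59.4% higher, against 87.8%), a fit that takes what separates P5 from P6 and GFPlo out of the residual spread. Median centring left 678 genes above in every enriched array. For the wild-type comparison the count was 194 with the scanner's log ratio, 195 with the series table, 210 with median centring, 31 with scale normalization and 188 with slide as replicate block, and for the pregnant one 115 with the scanner's log ratio. The share of wild-type upward calls higher in GFPhi was 98.7% with the scanner's ratio, 98.8% with the series table, 98.5% with backgrounds as given and 100% with scale normalization. Without a filter 1 gene was called for a difference between the sorting methods. The causes of these changes were not tested.

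With 1 array left out, the count called ran from 120 to 478, genes above from 1556 to 2253, genes below from 790 to 1559, the wild-type count from 20 to 158, the share in GFPhi from 98.0% to 100% and the pregnant count from 0 (1157 with an unadjusted p under 0.05 by limma) to 105. Where a group was left with 1 array, it was assumed to vary like the others. The rise of the numbers of genes above and below was fixed in advance, since fewer arrays have to meet the rule.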
